A study of Mus musculus with 9 samples.

Results

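The 10 genes Trp63, Klf4, Grhl1, Grhl3, Ovol1, Ehf, Elf3, Gata3, Zfp750 and Prdm1 encode transcription factors that set keratinocyte identity or drive keratinocytes through terminal differentiation. They were chosen by their symbols, and all 10 were found among the 52550 genes of the epidermal count table. RNA was sequenced from epidermal ear sheets of male wild-type C57BL/6 mice (C57BL/6J in the study's methods) aged 8 weeks, in 9 libraries that form 3 groups of 3. Vaseline or imiquimod cream, an agonist of Toll-like receptor 7 that causes psoriasis-like dermatitis, was put on the ears for 5 days, and every mouse was gavaged with 200 μl for 10 days, once daily by the labels, while a legend of the study has a more frequent gavage. Control mice had Vaseline on the ears and water by gavage (VAS + H2O), while model mice had imiquimod on the ears with water by gavage (IMQ + H2O). Mice of the third group had imiquimod on the ears and were gavaged with 23.3 mg/g of the herbal decoction Xiao-Yin-Fang (IMQ + XYF). None of the 3 groups had XYF without imiquimod. The methods state that the sheets came from a pair of mice without saying whether this holds for each library. Another legend gives n = 3 per group for this sequencing. It is thus not settled how many mice stand behind each library. The p-values measure the spread between these libraries, which may be partly technical.

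Keratinocytes divide in the basal layer of the epidermis, leave it, and mature through the spinous and granular layers into the cornified barrier. p63, the product of Trp63, maintains basal epithelial identity, and Klf4, Grhl3, Zfp750, Ovol1 and Prdm1 act later, when proliferation ends and barrier genes are switched on. Ehf and Elf3 belong to the epithelium-specific branch of the ETS factors, Grhl1 and Grhl3 to the Grainyhead-like factors that control junction and barrier genes, and Gata3 works in the interfollicular epidermis and hair follicle as well as in T cells.

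Libraries held 30298275 to 64771160 counts, and a floor of 3 counts was worth 0.0463 to 0.099 CPM (counts scaled to the library total), which covers counting error only. CPM below also include TMM normalization. All 10 genes passed the low-count filter in every comparison, and together they took 0.36% to 0.43% of the counts of a library. Keratinocyte markers (Krt5, Krt14, Krt1, Krt10, Perp and Dsp) were present in all libraries, with a summed level of 45900 to 58000 CPM in control, 58300 to 70500 CPM in model and 58900 to 64900 CPM in XYF libraries. Some libraries stood apart in markers of other tissues. The summed level of 7 fibroblast markers was 643 CPM in VAS + H2O replicate 2 against 68.5 and 103 in the others of its group, and that of 5 neutrophil markers was 2150 CPM in IMQ + H2O replicate 3 against 280 and 358. Values without these libraries are given where they bear on a gene. In such bulk tissue, fewer cells of a type and less RNA per cell cannot be told apart.

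Elf3 and Grhl3, which rose between VAS + H2O and IMQ + H2O, and Gata3, which fell, have entries in the RefSeq promoter table (GRCm38.p6), and the bases before their starts are shown to set the genes side by side. The sequences run 5′ to 3′ on the strand of the gene, in lower case, and capitals mark the ETS motif GGAAG on either strand. The shorter ETS core GGAA was not searched, and where it stands without the last G it is not marked. The window was 250 bases before the RefSeq start. For Elf3 its last 96 bases lie within an exon of GENCODE M21 and are left out, so 154 bases are shown, at chr1:135258569-135258722 on the minus strand. The window of Gata3 is at chr2:9878601-9878850 on the minus strand, within an exon of the antisense RNA gene Gm13256, and that of Grhl3 is at chr4:135573633-135573882 on the minus strand.
Elf3: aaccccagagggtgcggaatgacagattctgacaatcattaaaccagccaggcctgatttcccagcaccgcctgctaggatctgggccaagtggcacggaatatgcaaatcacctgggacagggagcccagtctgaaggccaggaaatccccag
Gata3: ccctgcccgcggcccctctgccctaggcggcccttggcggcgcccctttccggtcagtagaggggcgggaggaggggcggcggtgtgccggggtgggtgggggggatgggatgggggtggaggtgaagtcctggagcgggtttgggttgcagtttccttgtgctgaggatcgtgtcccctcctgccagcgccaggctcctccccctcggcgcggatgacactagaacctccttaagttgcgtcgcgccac
Grhl3: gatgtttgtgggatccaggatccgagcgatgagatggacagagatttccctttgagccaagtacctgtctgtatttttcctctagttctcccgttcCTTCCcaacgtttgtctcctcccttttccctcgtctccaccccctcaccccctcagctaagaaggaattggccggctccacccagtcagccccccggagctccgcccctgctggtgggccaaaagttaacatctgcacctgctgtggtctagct

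Grhl3 held 1 ETS core, which begins 154 bases before its start, and the full windows of Elf3 and Gata3 held none. GGAAG is short, and 64.1% of the 32851 promoters of the table hold it on one strand or the other. Of the other motifs searched on both strands, GATAA was in 22.6% of promoters, GGGTGTGG (Klf4) in 3.2%, the AP-1 motif TGANTCA in 6.75% and the Grainyhead motif AACCGGTT in 0.116%. None of these 4 occurred in the windows of Elf3, Gata3 or Grhl3. Of the 10 genes, 6 had an entry in the table, the others being Klf4, Grhl1 and Prdm1. Klf4 held 1 GGAAG, 126 bases before its start. Prdm1 held GGAAG at 202, 154 and 124 bases, and an AP-1 motif at 48 bases. Grhl1 has 2 starts in the table, of which 1 held GGAAG at 201 and 21 bases and the other none. GC content of the full window was 57.2% in Elf3, 70% in Gata3 and 56% in Grhl3, beside a median of 52.4% over all promoters. A match is a string of letters, and binding was not measured.

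Imiquimod was compared with Vaseline to see which of these factors differ in psoriasis-like epidermis. Ehf and Elf3 rose 3.16-fold and 4.53-fold, Grhl3 rose 1.4-fold, and Gata3 fell by 39.8%. Thus 4 of the 10 genes passed the test, 3 higher and 1 lower in IMQ + H2O, where passing means a p-value from edgeR's quasi-likelihood test that is 0.05 or less after Benjamini-Hochberg adjustment. Of all 18009 genes tested, 22.1% passed, 12.7% higher and 9.41% lower. DEGs, which must also move by 1 or more on the log2 scale, were 2 of the 10 (Ehf and Elf3) against 7.68% of all genes. DESeq2 passed 5 of the 10, against 25% of its genes. In 6 of the 10 genes the libraries of the 2 groups did not overlap, against 45% of all genes. The median log2 fold change was 0.30 over the 10 genes and -0.03 over all genes.

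**Figure D1:**
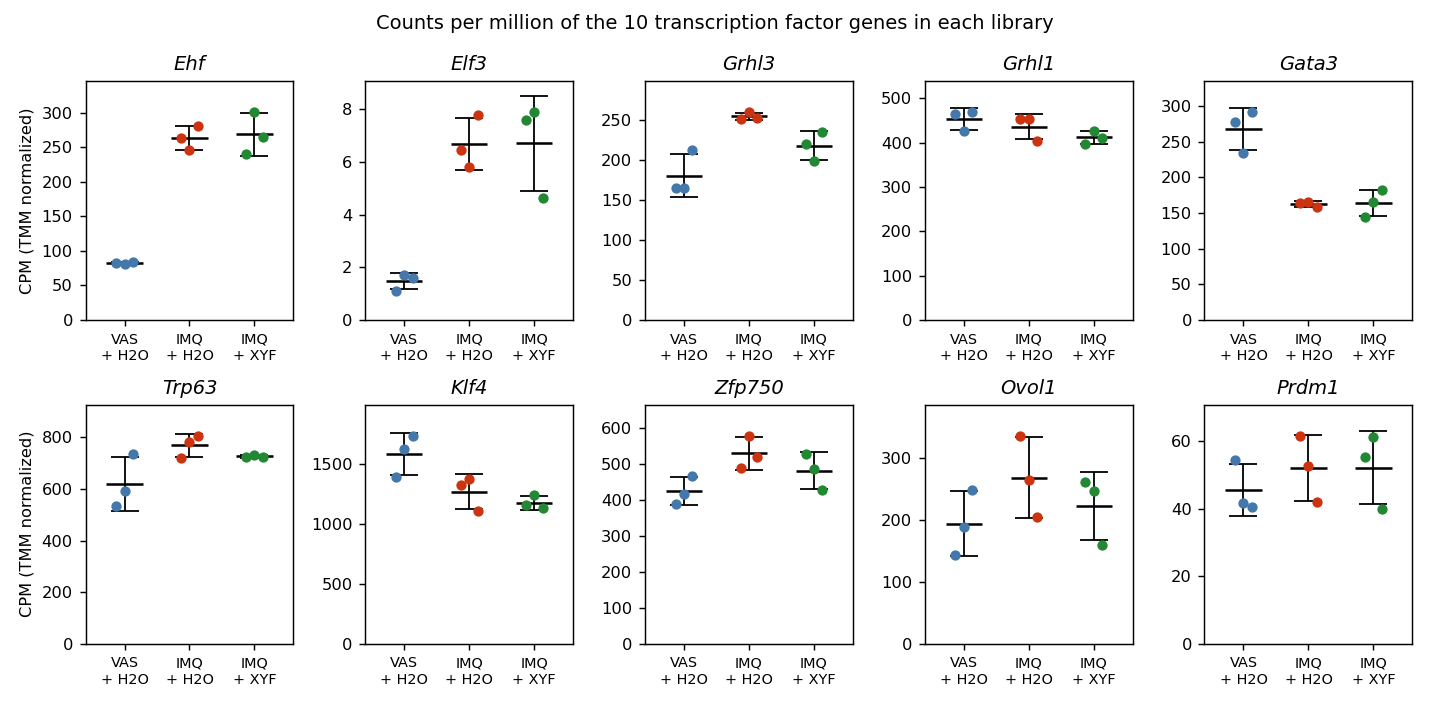
CPM of each of the 10 genes in each library (points), by group on the horizontal axis, with the mean (long bar) and SD (whiskers) of the 3 libraries and a vertical axis that starts at 0. Ehf and Elf3 are lower, and Gata3 higher, in all 3 VAS + H2O libraries than in any of the 6 imiquimod libraries.

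Ehf (ENSMUSG00000012350, chr2:103263433-103303278 on the minus strand) encodes an ETS factor of differentiating epithelia. Its level was 83.07, 80.64 and 83.84 CPM in the VAS + H2O libraries and 264, 245.8 and 280.7 CPM in the IMQ + H2O libraries. The control libraries lay close together, and every imiquimod library was far above them. The log2 fold change was 1.66 (SE 0.08, 95% interval 1.47 to 1.85, edgeR adjusted p = 0.00148), and Ehf ranked 2 by p-value among the 18009 genes. Its spread within VAS + H2O was an SD of 1.67 around a mean of 82.5 CPM.

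Elf3 (ENSMUSG00000003051, chr1:135253575-135258568 on the minus strand), an ETS factor of simple and inflamed epithelia, was scarce in control epidermis. It had 1.121, 1.698 and 1.577 CPM in VAS + H2O, from 53, 56 and 55 counts, and 6.458, 5.822 and 7.774 CPM in IMQ + H2O, from 187, 224 and 336 counts. The groups were well separated, at counts far above the floor. The log2 fold change was 2.18 (SE 0.24, 95% interval 1.62 to 2.74, edgeR adjusted p = 0.00575). Elf3 shares 162 exonic bases with the antisense gene Gm26642, and the strand setting of the counting is not given in the sources used here. Gm26642 itself had 2.81, 2.85 and 3.47 CPM in VAS + H2O and 2.62, 2.29 and 2.5 CPM in IMQ + H2O, a log2 fold change of -0.31 (SE 0.19, edgeR adjusted p = 0.27).

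Elf5 completes the epithelium-specific ETS branch and was read from the list of 33 other keratinocyte transcription factors. It had 4.165, 2.851 and 3.354 CPM in VAS + H2O and 19.03, 17.73 and 16.64 CPM in IMQ + H2O. It rose with a log2 fold change of 2.35 (SE 0.17, edgeR adjusted p = 0.00214), so each of the 3 genes of the branch rose. Ets2, an ETS factor of the broader family, is in the same list and did not pass (log2 fold change 0.00, 95% interval -0.47 to 0.47).

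Grhl3 (ENSMUSG00000037188, chr4:135541888-135573630 on the minus strand) encodes a Grainyhead-like factor needed for the skin barrier and epidermal repair. It had 164.4, 164.7 and 211.5 CPM in VAS + H2O and 251.1, 259.2 and 252.3 CPM in IMQ + H2O. The imiquimod libraries lay within a narrow band, above all controls, of which replicate 3 was the highest. This gave a log2 fold change of 0.48 (SE 0.11, 95% interval 0.22 to 0.75, edgeR adjusted p = 0.0261). This call was lost when any of 5 of the 6 libraries was left out (edgeR adjusted p = 0.0811 and 0.0853 without VAS + H2O replicates 1 and 2, and 0.0607, 0.0567 and 0.0612 without IMQ + H2O replicates 1, 2 and 3), with a log2 fold change between 0.42 and 0.53 in these 5 fits.

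The paralogs of Grhl3 did not pass. Grhl1 (ENSMUSG00000020656, chr12:24572283-24617391 on the plus strand), which acts on desmosomal genes, had 465.5, 425.6 and 468.6 CPM in VAS + H2O and 452.4, 452.4 and 403.1 CPM in IMQ + H2O. These ranges overlap, and the 95% interval of the log2 fold change, -0.27 to 0.13 around -0.07, bounds the difference (edgeR adjusted p = 0.584). Grhl2, from the list of other factors, had a log2 fold change of -0.04 (SE 0.27, edgeR adjusted p = 0.934), with 52.53 CPM in IMQ + H2O replicate 1 against 118.4 and 105.3 CPM in replicates 2 and 3.

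Gata3 (ENSMUSG00000015619, chr2:9857078-9890034 on the minus strand) was the only one of the 10 that passed the test as lower in IMQ + H2O. It had 277.8, 233.9 and 291.2 CPM in VAS + H2O and 163.5, 165.8 and 158.2 CPM in IMQ + H2O. All imiquimod libraries were below all controls and within a few CPM of each other. The log2 fold change was -0.73 (SE 0.09, 95% interval -0.96 to -0.51, edgeR adjusted p = 0.0077), below the fold needed for a DEG.

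Gata3 is also a factor of T cells, and T cell markers moved in both directions. Of the 6 T cell markers, 4 fell (Cd3e, Cd3g, Cd3d and Cd2, log2 fold changes -1.06 to -0.73), Thy1 rose (log2 fold change 1.24), and Trdc had a log2 fold change of -0.53 (edgeR adjusted p = 0.0518). Their summed level was 101 to 109 CPM in VAS + H2O and 151 to 174 CPM in IMQ + H2O, and none was at 0. Thy1 was the largest part of that sum. It was at 53.4 ± 8.1 CPM in VAS + H2O and 127 ± 12.4 CPM in IMQ + H2O (SD, n = 3). The summed level of 7 sebaceous gland and hair follicle markers was 2690 to 4940 CPM in VAS + H2O and 1490 to 1980 CPM in IMQ + H2O, and up to 2 of them were at 0 in a library. Nearly all of that sum was Scd1, at 3740 ± 1120 CPM in VAS + H2O and 1700 ± 239 in IMQ + H2O (SD, n = 3). Of the 5 tested, only Scd1 passed, and 1 had a log2 fold change above 0 (Awat1, 0.44) and 4 below. The part of T cells, sebaceous glands or hair follicles in the fall of Gata3 was not tested. Gata3 shares 155 exonic bases with the antisense gene Gm13256 (0 to 13 counts per library) and 77 with 9230102O04Rik on its own strand (24 to 107 counts).

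Klf4 (ENSMUSG00000003032, chr4:55527143-55532466 on the minus strand), a zinc finger factor required for barrier formation, had 1391, 1622 and 1735 CPM in VAS + H2O and 1327, 1379 and 1104 CPM in IMQ + H2O. Every imiquimod library was below every control, by a small margin between the nearest libraries. Its log2 fold change of -0.33 (SE 0.13, 95% interval -0.63 to -0.03) did not pass (edgeR adjusted p = 0.106).

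Zfp750 (ENSMUSG00000039238, chr11:121510978-121519333 on the minus strand), a nuclear factor of terminal differentiation that acts downstream of p63, had 387.7, 416.8 and 465.6 CPM in VAS + H2O and 489.2, 577.2 and 518.7 CPM in IMQ + H2O. The groups again did not overlap, here with the imiquimod libraries above. Zfp750 had a log2 fold change of 0.31 (SE 0.1, 95% interval 0.06 to 0.55, edgeR adjusted p = 0.0776), and DESeq2 placed the same gene just past the threshold (log2 fold change 0.32, DESeq2 adjusted p = 0.0442).

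Trp63 (ENSMUSG00000022510, chr16:25683763-25892102 on the plus strand), the basal identity factor, had 532.3, 593 and 733.6 CPM in VAS + H2O and 719.4, 783.3 and 805.5 CPM in IMQ + H2O. VAS + H2O replicate 3 lay within the imiquimod range. The log2 fold change was 0.30 (95% interval -0.01 to 0.61, edgeR adjusted p = 0.142), and without that library it was 0.47 and passed (edgeR adjusted p = 0.0422). The annotation lists 8 transcripts of Trp63, and a count per gene cannot separate its isoforms.

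Ovol1 and Prdm1 were spread widely within their groups. Ovol1 (ENSMUSG00000024922, chr19:5549136-5560646 on the minus strand), a zinc finger factor that acts as keratinocytes leave the cell cycle, had 143.5, 188.5 and 248.5 CPM in VAS + H2O and 335.3, 263.7 and 204.3 CPM in IMQ + H2O. The ranges overlapped, and the 95% interval of its log2 fold change of 0.45, from -0.12 to 1.03, was the widest of the 6 of these 10 factors that did not pass (edgeR adjusted p = 0.215). Its paralog Ovol2, from the list of other factors, had a log2 fold change of -0.68 (SE 0.26, edgeR adjusted p = 0.109). Prdm1 (ENSMUSG00000038151, chr10:44437177-44528501 on the minus strand), which encodes the repressor Blimp1 of granular and sebaceous cells, had 54.38, 41.7 and 40.47 CPM in VAS + H2O and 61.61, 52.61 and 42.13 CPM in IMQ + H2O. These ranges overlapped too, with a log2 fold change of 0.18 (95% interval -0.23 to 0.59, edgeR adjusted p = 0.481).

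Cartilage and neutrophil markers also differed between the groups. The summed level of 7 cartilage markers was 257 to 589 CPM in VAS + H2O and 51.5 to 106 CPM in IMQ + H2O, and 6 of 6 tested were lower in IMQ + H2O. The summed level of neutrophil markers was 14.6 to 18.2 CPM in VAS + H2O and 280 to 2150 CPM in IMQ + H2O. Most of the IMQ + H2O sum was S100a8 (105.1, 141.4 and 982 CPM) and S100a9 (125.2, 164.9 and 1052 CPM). Csf3r had 0, 3 and 3 counts in VAS + H2O and 5, 33 and 1642 counts in IMQ + H2O. The neutrophil surface marker Ly6g was at 0 in all 3 VAS + H2O and 2 of the 3 IMQ + H2O libraries. Of the 7 fibroblast markers 1 passed (Col1a2, lower in IMQ + H2O), and their summed level was 68.5, 643 and 103 CPM in VAS + H2O and 45.2 to 53.5 CPM in IMQ + H2O, so that replicate 2 held most of the control signal. Ehf, Elf3 and Gata3 passed in each of the fits that left out VAS + H2O replicate 2 or IMQ + H2O replicate 3. The groups still differed in these markers without those libraries. Neutrophil markers summed to 280 and 358 CPM in the other IMQ + H2O libraries, above all controls. Fibroblast markers summed to 68.5 and 103 CPM in the other VAS + H2O libraries, above all of IMQ + H2O. Whether differences in tissue content, these included, took part in these results was not tested.

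XYF was compared with water under imiquimod to see whether the decoction moved these factors. None of the 10 genes passed the test and none was a DEG (edgeR), against 0.0281% of the 17793 genes tested, and DESeq2 passed 0 of 10, against 0.966% of its genes. At an unadjusted p under 0.05, 1 of the 10 (Grhl3, edgeR adjusted p = 0.805) stood against 5.43% of all genes. That gene was also the only one whose libraries did not overlap, against 10.7% of all genes. The median log2 fold change was -0.08 over the 10 genes and 0 over all genes.

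Ehf, Elf3 and Gata3, which had moved most with imiquimod, had log2 fold changes of 0.01 to 0.03 with XYF. Ehf had 240, 300.9 and 265.1 CPM in IMQ + XYF, a log2 fold change of 0.03 against IMQ + H2O (95% interval -0.21 to 0.27). Elf3 had 7.585, 7.891 and 4.643 CPM, a log2 fold change of 0.01 with a wide interval (-0.54 to 0.56). Gata3 had 144.8, 165.3 and 182 CPM, a log2 fold change of 0.02 (95% interval -0.20 to 0.24). In each the libraries of the 2 imiquimod groups were mixed in order, and the intervals bound any difference that these libraries could show.

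Grhl3 had 219.2, 198.9 and 234.7 CPM in IMQ + XYF, all below the IMQ + H2O libraries and, but for replicate 2, above the control libraries. Its log2 fold change against IMQ + H2O was -0.22 (95% interval -0.40 to -0.03), which did not pass after adjustment over all genes. The others had small changes with intervals that include 0. Klf4 had 1157, 1244 and 1129 CPM (log2 fold change -0.10, 95% interval -0.35 to 0.14) and Trp63 had 722.8, 733.4 and 723.9 CPM (log2 fold change -0.08, 95% interval -0.25 to 0.10). Zfp750 had 528.3, 486.1 and 428.2 CPM (log2 fold change -0.13, 95% interval -0.38 to 0.12) and Grhl1 had 397.8, 426.3 and 411.2 CPM (log2 fold change -0.08, 95% interval -0.25 to 0.10). Of these others, the least bounded were Ovol1 at 260.5, 246.2 and 158.8 CPM (log2 fold change -0.26, 95% interval -0.83 to 0.30) and Prdm1 at 55.23, 61.24 and 40.08 CPM (log2 fold change 0.01, 95% interval -0.45 to 0.47). In both of these, replicate 3 was the lowest XYF library. Cartilage markers summed to 166 to 285 CPM and fibroblast markers to 71.1 to 204 CPM in IMQ + XYF, against 51.5 to 106 and 45.2 to 53.5 CPM in IMQ + H2O, and their part in these values was not tested.

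**Figure D2:**
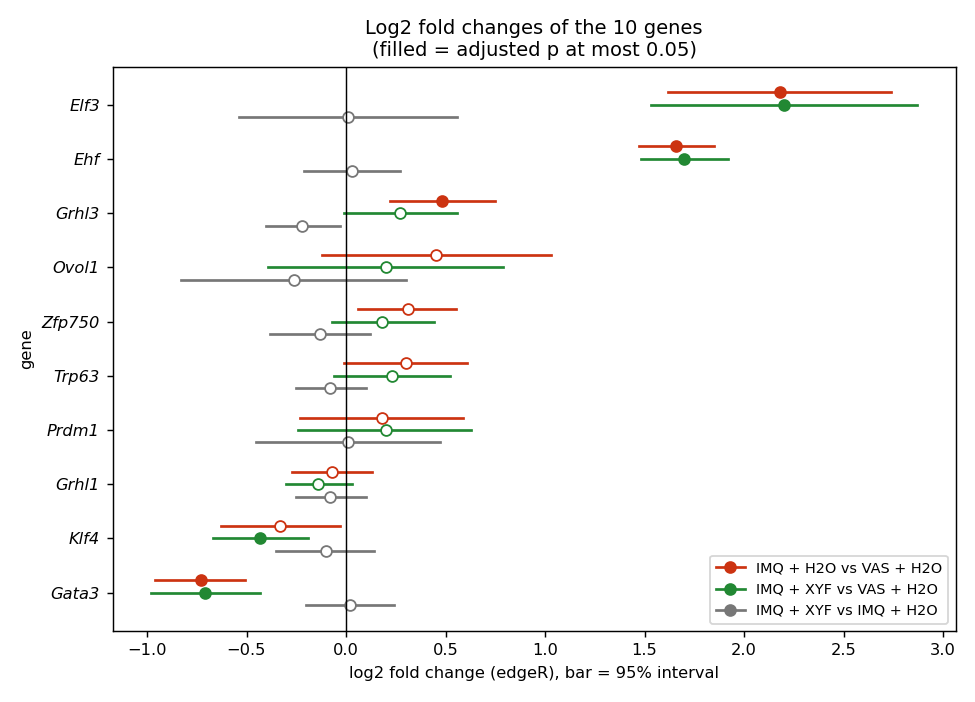
Log2 fold change from edgeR (horizontal axis) of each gene (vertical axis) in the 3 comparisons, with bars for the 95% interval and filled points for an adjusted p of at most 0.05. Ehf, Elf3 and Gata3 lie away from 0 in both comparisons with VAS + H2O, and all points of IMQ + XYF against IMQ + H2O are open and within 0.26 of 0.

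XYF epidermis was also set against the control, a comparison that shares its VAS + H2O libraries with the first and its IMQ + XYF libraries with the second. Again 4 of the 10 genes passed, 2 higher and 2 lower, against 28.7% of the 17954 genes tested (16.7% higher, 12% lower). Ehf and Elf3 were DEGs, 2 of 10 against 7.64% of all genes, and 4 of 10 did not overlap, against 47.5%. Ehf rose with a log2 fold change of 1.70 (SE 0.09, edgeR adjusted p = 0.000247) and Elf3 with 2.20 (SE 0.28, edgeR adjusted p = 0.00268), while Gata3 fell with -0.71 (SE 0.12, edgeR adjusted p = 0.00612). Klf4 fell as well, with -0.43 (SE 0.1, edgeR adjusted p = 0.0212), and this call was lost in 5 of the 6 fits that left out a library (without VAS + H2O replicates 2 or 3 or any IMQ + XYF replicate, edgeR adjusted p = 0.0515 to 0.0845). Grhl3 had a log2 fold change of 0.27 (95% interval -0.01 to 0.56, edgeR adjusted p = 0.135), and without VAS + H2O replicate 3 it passed (0.42, edgeR adjusted p = 0.0226). Trp63 had 0.23 (edgeR adjusted p = 0.197) and also passed without that library (0.39, edgeR adjusted p = 0.0208). The remaining genes had log2 fold changes of 0.20 (Ovol1 and Prdm1), 0.18 (Zfp750) and -0.14 (Grhl1), with edgeR adjusted p-values of 0.178 to 0.586.

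To compare levels between genes, CPM were divided by the length of all exons of the gene, in CPM per kb. This length joins the exons of all annotated transcripts, and the order of genes depends on that choice. In plain CPM, Trp63 was above Zfp750 in VAS + H2O (620 ± 103 against 423 ± 39.4, SD, n = 3). Klf4 was highest in VAS + H2O at 519 ± 57.5 CPM per kb (SD, n = 3), followed by Zfp750 at 131 ± 12.2. Grhl1 (81.8 ± 4.33), Trp63 (73.8 ± 12.3), Gata3 (67.3 ± 7.53), Grhl3 (64.6 ± 9.72) and Ovol1 (55.5 ± 15.1) came next, and neighbours in this order overlapped between libraries. Ehf was lower at 14.8 ± 0.3 CPM per kb, then Prdm1 at 8.16 ± 1.38 and Elf3 at 0.661 ± 0.137, each without overlap with the gene above it.

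In IMQ + H2O the order of the first 2 and the last 2 genes was as in the control. Klf4 stood at 417 ± 47.9 and Zfp750 at 163 ± 13.9 CPM per kb, with Prdm1 at 9.34 ± 1.75 and Elf3 at 3.02 ± 0.449 at the other end. Ehf at 47.3 ± 3.13 CPM per kb was now above Gata3 at 40.8 ± 0.98, with no overlap between the libraries of these neighbours. Trp63 (91.7 ± 5.33) and Grhl3 (91.1 ± 1.57) overlapped with each other, as did Grhl1 (78.7 ± 5.14) and Ovol1 (76.8 ± 18.8). In IMQ + XYF, Ehf at 48.2 ± 5.49 and Gata3 at 41.2 ± 4.68 CPM per kb overlapped.

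**Figure D3:**
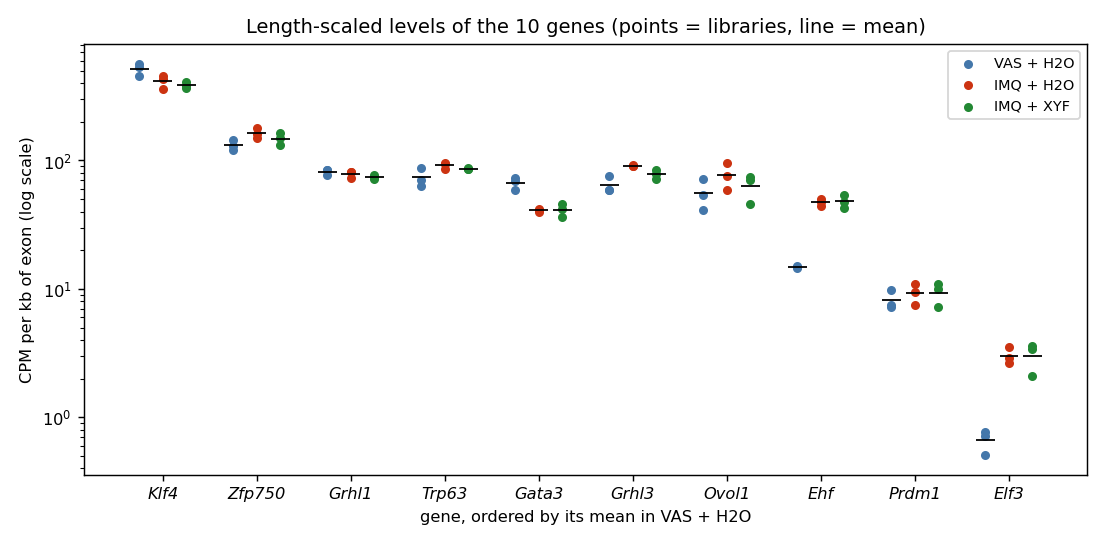
CPM per kb of exon of each gene in each library (points, log scale), with the group mean as a line and genes ordered by their mean in VAS + H2O. Klf4 is highest and Elf3 lowest in all 3 groups, while Ehf lies below Gata3 in VAS + H2O and above it in IMQ + H2O.

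Ratios of counts within a library do not depend on its normalization, and 4 pairs, chosen after the values were seen, are given as descriptions. Ehf to Gata3 was 0.299, 0.345 and 0.288 in the controls, 1.61, 1.48 and 1.77 with imiquimod, and 1.66, 1.82 and 1.46 with imiquimod and XYF. Every imiquimod library was thus several times above every control. Klf4 to Trp63 was 2.61, 2.73 and 2.36 in the controls, 1.84, 1.76 and 1.37 with imiquimod, and 1.6, 1.7 and 1.56 with imiquimod and XYF, with the controls above all others. Grhl3 to Grhl1 was 0.353, 0.387 and 0.451 in the controls, 0.555, 0.573 and 0.626 with imiquimod, and 0.551, 0.467 and 0.571 with imiquimod and XYF. Zfp750 to Klf4 was 0.268 ± 0.0108 in the control, 0.419 ± 0.0506 with imiquimod and 0.409 ± 0.0417 with imiquimod and XYF (SD, n = 3).

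**Figure D4:**
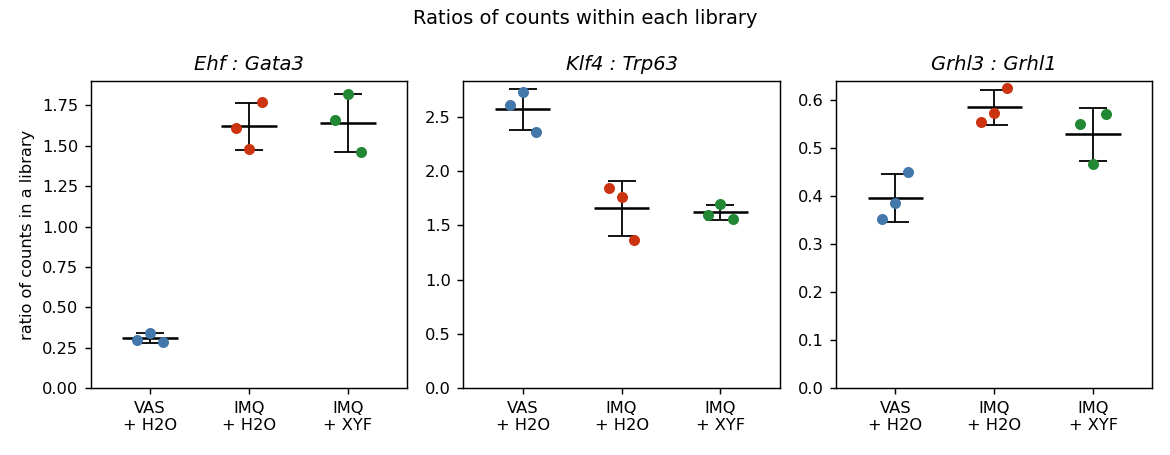
Ratio of the counts of a pair of genes within each library (points), by group, with the mean (long bar) and SD (whiskers) of 3 libraries and a vertical axis from 0. Ehf to Gata3 is at most 0.345 in VAS + H2O and at least 1.46 in the imiquimod libraries, and Klf4 to Trp63 is at least 2.36 in VAS + H2O and at most 1.84 elsewhere.

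Other genes of the same programme were read from lists of known keratinocyte factors and layer genes. Of 33 other keratinocyte transcription factors, 7 rose and 4 fell between VAS + H2O and IMQ + H2O, with a median log2 fold change of -0.06, where 12.7% of all genes rose and 9.41% fell. Beside Elf5, the list's smallest p-values were those of Cebpb, a bZIP factor of differentiating keratinocytes (0.88, SE 0.08, edgeR adjusted p = 0.00372), Ppard, a lipid-sensing nuclear receptor (1.01, SE 0.18, edgeR adjusted p = 0.0134), and Bnc1, the basal zinc finger factor basonuclin (1.07, SE 0.19, edgeR adjusted p = 0.0142). Cebpb was at 65.7 ± 3.69 CPM in the control, 122 ± 4 with imiquimod and 109 ± 3.42 with imiquimod and XYF (SD, n = 3). The 4 that fell were the hair follicle stem cell factors Sox9 and Tcf7l1 (-1.02), the glucocorticoid receptor Nr3c1 (-0.76) and Maf (-0.47). Hopx (0.91) and Sp6 (0.49) were also among those that rose. Tfap2c (-0.01), Casz1 (0.00) and Klf5 (-0.20) did not pass.

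Genes of the layers moved unevenly. Among 12 granular genes 4 rose and 0 fell, with a median log2 fold change of 0.37, beside 12.7% and 9.41% of all genes. The 4 were the cross-linking enzymes Tgm1 (1.08) and Tgm3 (1.17), the envelope protein involucrin Ivl (1.10) and the lipoxygenase Alox12b (0.46), while Lor (-0.39), Flg (0.16) and Flg2 (-0.88) did not pass. Tgm1 was at 172 ± 11.4 CPM in the control, 368 ± 24.9 with imiquimod and 323 ± 16 with imiquimod and XYF (SD, n = 3). Among 8 spinous genes 2 rose, the keratin Krt1 (1.45) and the desmocollin Dsc1 (0.50), with a median of 0.17. That count is near the 22.1% of all genes that passed in either direction.

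Among 9 basal genes 2 rose and 4 fell, with a median log2 fold change of 0.08, beside 12.7% and 9.41% of all genes. The keratin Krt15 fell most (-2.10), from 2280 ± 366 CPM in VAS + H2O to 537 ± 152 in IMQ + H2O, with 660 ± 68.6 in IMQ + XYF (SD, n = 3), and the anchoring genes Lamb3 (-0.67), Dst (-0.99) and Col17a1 (-0.42) fell as well. Krt14 (0.72) and the integrin Itga3 (0.73) rose. Known targets of p63 included 1 gene that rose and 2 that fell of 10, with a median of 0, and known targets of the Grainyhead-like factors included 2 that rose (Tgm1 and Rab25) and 1 that fell (Arhgef19) of 7, with a median of -0.02. The count for p63 targets is near the 22.1% of all genes that passed. Some genes stand in more than 1 list.

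Between IMQ + XYF and IMQ + H2O, 0 genes of these 6 lists passed the test in edgeR, and list medians lay between -0.11 and 0.01. Between IMQ + XYF and VAS + H2O, 6 of the other factors were higher and 4 lower, and the counts were 5 higher and 2 lower for granular, 2 and 1 for spinous, 2 and 4 for basal, 1 and 3 for p63 target and 2 and 3 for Grainyhead target genes. Of all genes, 16.7% were higher and 12% lower, so the count of the other factors is near that of all genes.

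**Figure D5:**
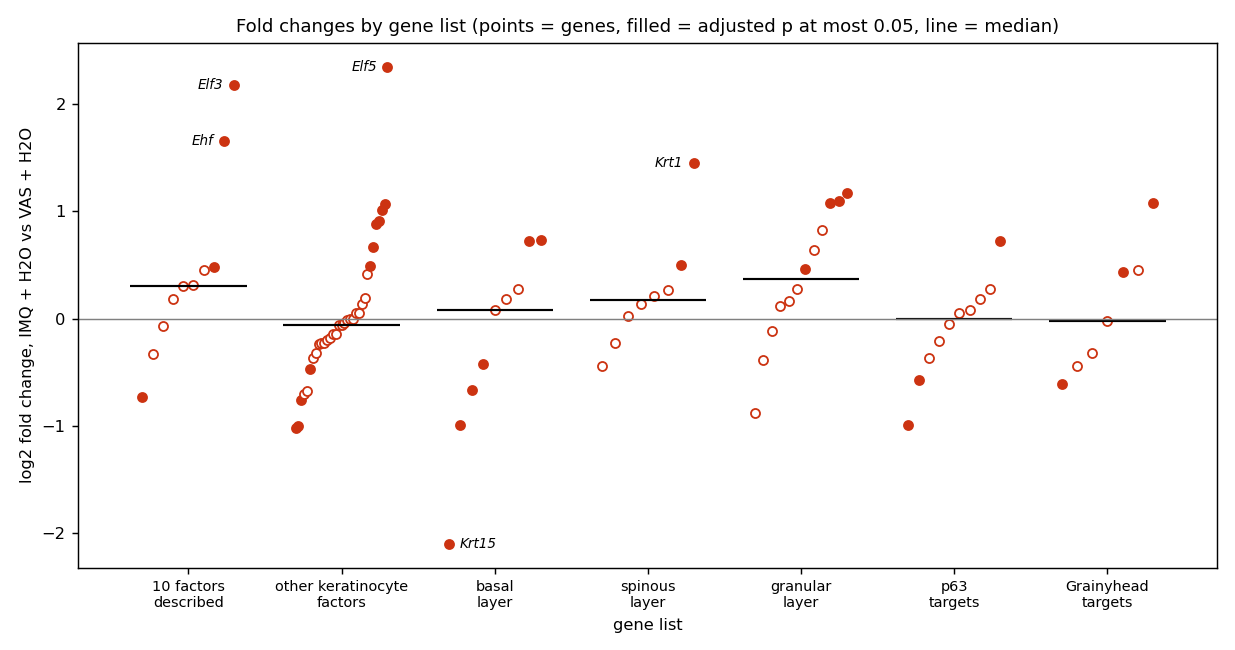
Log2 fold change between IMQ + H2O and VAS + H2O (vertical axis) of each gene in 7 lists, with filled points for an edgeR adjusted p of at most 0.05 and a line at the list median. Elf5 (2.35), Elf3 (2.18) and Ehf (1.66) lie above the rest of the genes drawn, Krt15 (-2.10) lies lowest, and the list medians are between -0.06 and 0.37.

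For each factor that passed between IMQ + H2O and VAS + H2O, the 3 genes most like it in log2 CPM over the 9 libraries were named among 18492 genes. The libraries share group and treatment, so the correlations are a description. Ehf was followed most closely by Plbd1 (Pearson r = 0.997), 2610528A11Rik (0.995) and the glucose transporter gene Slc5a1 (0.994). Elf3 was followed by the neutrophil chemokine gene Cxcl1 (0.985), the peptidoglycan sensor gene Nod2 (0.984) and Ethe1 (0.984). Gata3 was followed by AI429214 (0.997), the Wnt feedback gene Axin2 (0.987) and Krba1 (0.986). Grhl3 was followed by Gm10156 (0.977), Kcnn1 (0.963) and the pseudogene Rpl36a-ps1 (0.961), whose reads may be shared with its parent gene.

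Among the 10 factors themselves, Ehf and Elf3 had r = 0.97 over the 9 libraries but 0.23 after the group means were removed, and Elf3 and Gata3 had -0.97 and -0.64. Trp63 and Grhl3 kept a high value, 0.89 over all libraries and 0.76 within groups. Klf4 and Ovol1 were unlike over all libraries (0.07) and alike within groups (0.79). These are descriptions over 9 libraries that share depth and normalization.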

How the data were processed

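Epidermal ear sheets in 9 libraries were analysed, grouped by their labels. The authors deposited whole-number counts per gene, without normalization, 1 column per library. According to the study's methods and the submitters' processing notes (STAR 2.5, Cuffnorm, DESeq 1.22.1 and FastQC), TruSeq libraries were aligned to GRCm38 with Ensembl annotation. The tool and strand setting of the counting are not given in the sources used here, so overlapping and antisense genes may share reads. Of 52550 genes, 21327 had no count.

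Each pair of groups was fitted on its 6 libraries with edgeR 4.0.16 in R 4.3.3 (TMM factors, filterByExpr, glmQLFit, then glmQLFTest), with Benjamini-Hochberg adjustment over all genes tested. The study names DESeq2, which was run as an alternative (1.42.0). Standard errors were derived from the F statistic, and log2 CPM used a prior count of 2. TMM factors were 0.956 to 1.06. Replicates differed by more than counting noise (chi-square per gene 23.8 to 75). Exon lengths and positions are from GENCODE M21 on GRCm38. The fits were tested on simulated data, in which 100 genes were changed by 1 log2 unit and 100 by 2 in each comparison. Of genes changed by 1 log2 unit, edgeR recovered 47% (IMQ + H2O against VAS + H2O), 42% (IMQ + XYF against IMQ + H2O) and 45% (IMQ + XYF against VAS + H2O). At 2 log2 units it recovered 83%, 80% and 78%. DESeq2 recovered 61%, 61% and 65% at 1 log2 unit, with 67, 51 and 79 false calls against 9, 9 and 15 for edgeR. In the data 3986, 5 and 5152 genes passed in these comparisons, in the same order, so recovery there may differ. The shares were not split by level, and all of the factors but Prdm1 and Elf3 were at percentile 95.2 or above. They are thus not the power of the tests for these factors.

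Named genes are the 10 factors, up to 4 genes per list with the smallest p-values among those that passed between IMQ + H2O and VAS + H2O, and the 3 genes most correlated with each factor that passed. Further genes of the lists were named after their values were seen. Some genes of the lists are not reported here by name. The members and lists were chosen with earlier results of these data known, and counts over them are no independent support. Alternatives were DESeq2, RLE factors, no filter, at least 10 counts per library, a joint fit of all 9 libraries, a block for the replicate number and each library left out.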

Additional observations from a re-analysis of the deposited data

How the results depend on the processing

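Between IMQ + H2O and VAS + H2O, 4 of the 10 genes passed under RLE factors, no filter, at least 10 counts, all 9 libraries in 1 fit and the replicate block, 5 passed with DESeq2, and 3 to 5 when a library was left out. DEGs were 2 in each of these fits. Over all genes the share that passed was 22.1% with RLE factors, 10.2% without a filter, 25.3% with at least 10 counts, 27.4% in the joint fit, 16.7% with the block, 25% with DESeq2 and 7.77% to 16.6% with a library left out. Between IMQ + XYF and IMQ + H2O the count was 0 in every alternative run, with at most 0.966% of all genes passing (DESeq2). Between IMQ + XYF and VAS + H2O it was 4 with the alternatives that keep all libraries and TMM or RLE factors (14.1% to 32.5% of all genes) and 3 to 5 when a library was left out (17.4% to 24.5%). Ehf, Elf3 and Gata3 passed against VAS + H2O in every alternative, with log2 fold changes for IMQ + H2O of 1.57 to 1.74, 2.01 to 2.31 and -0.82 to -0.64. Library totals without TMM, chosen after seeing the data, added Klf4 (-0.42, edgeR adjusted p = 0.0424) between IMQ + H2O and VAS + H2O and Grhl1 (-0.21, edgeR adjusted p = 0.0453) between IMQ + XYF and VAS + H2O, and the median over all genes of the first comparison was then -0.12. Between IMQ + XYF and IMQ + H2O some values near 0 changed sign, and the cause was not tested. Elf3 was -0.01 with the replicate block. With a library left out, Elf3 ranged from -0.12 to 0.21, Ehf from -0.05 to 0.10, Gata3 from -0.06 to 0.09 and Prdm1 from -0.13 to 0.16.

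Same-numbered libraries did not deviate together (correlations of their deviations 0.01 to 0.03 between IMQ + H2O and VAS + H2O, -0.13 to 0.11 between IMQ + XYF and IMQ + H2O and -0.06 to 0.10 between IMQ + XYF and VAS + H2O), so the number was not taken as a pairing. With the replicate block, 4, 0 and 4 of the 10 genes passed in the 3 comparisons, and over all genes 3002, 0 and 3753 passed in place of 3986, 5 and 5152. With 3 libraries per group, small changes such as those of Trp63, Ovol1 and Prdm1 are bounded only by their intervals, and Elf3 rests on 53 to 56 counts per control library.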
